A study of Nicotiana benthamiana with 9 samples.

Results

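Transcripts of rbcL and accD, a pair of neighbouring plastid genes, were followed in leaves of Nicotiana benthamiana. Both were found by name among the 106 rows of a deposited count table, so that 2 of its 105 plastid genes are described (the remaining row is the transgene). All plants were wild type and all leaves expressed the P19 suppressor of RNA silencing. The 3 groups were leaves with P19 alone, leaves with P19 and dPPRerpl2 expressed from the vector pGWB2, and leaves with P19 and dPPRerpl2 expressed from pMDC32. Each group had 3 libraries, replicate 1 labelled 2 days post infiltration (dpi) and replicates 2 and 3 labelled 3 dpi, while the text on the whole series speaks of 3 dpi alone. dPPRerpl2 is a designed RNA editing factor built from pentatricopeptide repeats, which are RNA-binding modules, and its name points to rpl2 and not to rbcL or accD. The labels name neither the promoters of the vectors nor any pooling of leaves. Leaves without P19 were not analysed here.

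Rubisco fixes carbon dioxide in the Calvin cycle. Its large, catalytic subunit is encoded by rbcL in the plastid, and its small subunit by nuclear genes. Plants make very much Rubisco, and rbcL is accordingly known as one of the most abundant plastid messages in leaves. The accD gene encodes the beta subunit of the carboxyltransferase of plastid acetyl-CoA carboxylase, the enzyme of the first committed step of fatty acid synthesis. In tobacco, a close relative, rbcL is transcribed by the plastid-encoded RNA polymerase, while accD is a standard example of a gene with a promoter for the nuclear-encoded polymerase.

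Coordinates are those of the count table, which names no genome build. In it rbcL lay at 57452 to 58885 and accD at 59522 to 61060, both on the plus strand and 636 nt apart. The rows were 1434 nt and 1539 nt long, and the lengths of both are multiples of 3, as for a coding region without untranslated ends. No other row overlapped either gene. Upstream, atpB and atpE, for subunits of the plastid ATP synthase, lay on the minus strand, with 814 nt between atpB and rbcL. Downstream of accD, on its own strand, came psaI of photosystem I after 757 nt, ycf4 for a photosystem I assembly factor, cemA for an envelope membrane protein and petA for cytochrome f.

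Libraries held 32457135 to 44392760 counted reads, and 44.0% to 61.1% of them came from psbA, the gene of the photosystem II protein D1. P19 replicate 1 stood apart. It had the highest psbA share, and its score on the leading principal component was -5.94, where those of the remaining libraries ran from -0.55 to 2.64. The labels' tissue, leaf, could be set only against plastid genes, and psbA and rbcL were the most abundant of 80 protein-coding genes per length. In RNA from whole leaves, fewer plastids and less RNA per plastid cannot be told apart. Because the table holds plastid genes and the transgene, levels are relative to plastid RNA.

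The level of rbcL was high in every library and, after the scaling used here, differed little between them. Levels are CPM, for which edgeR divides each count by the library total corrected with a TMM factor. In P19 leaves rbcL stood at 140696, 143626 and 136716 CPM in replicates 1 to 3. With pGWB2 it stood at 158071, 161170 and 147436 CPM. With pMDC32 it stood at 160127, 156000 and 145307 CPM. The lowest editor library thus lay above the highest P19 library, and the pGWB2 and pMDC32 libraries overlapped. Group means were 140346 ± 3468 in P19, 155559 ± 7203 with pGWB2 (SD, n = 3 each) and 153811 ± 7649 CPM with pMDC32 (SD, n = 3). Per length, rbcL had rank 2 of the 80 protein-coding genes in each group mean, after psbA, and ranks 2 to 4 in single libraries.

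The accD transcript was scarce and more variable. In P19 leaves it stood at 612.3, 902.8 and 750.8 CPM. With pGWB2 it stood at 817.6, 628.2 and 728.9 CPM, and with pMDC32 at 679.1, 739.4 and 683.7. The P19 libraries held both the lowest and the highest value of the 9, and all groups overlapped. Means were 755.3 ± 145 in P19, 724.9 ± 94.8 with pGWB2 (SD, n = 3 each) and 700.7 ± 33.6 CPM with pMDC32 (SD, n = 3). Per length, accD ranked 73 of 80 protein-coding genes over all libraries, and 69 to 74 in single libraries.

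**Figure D1:**
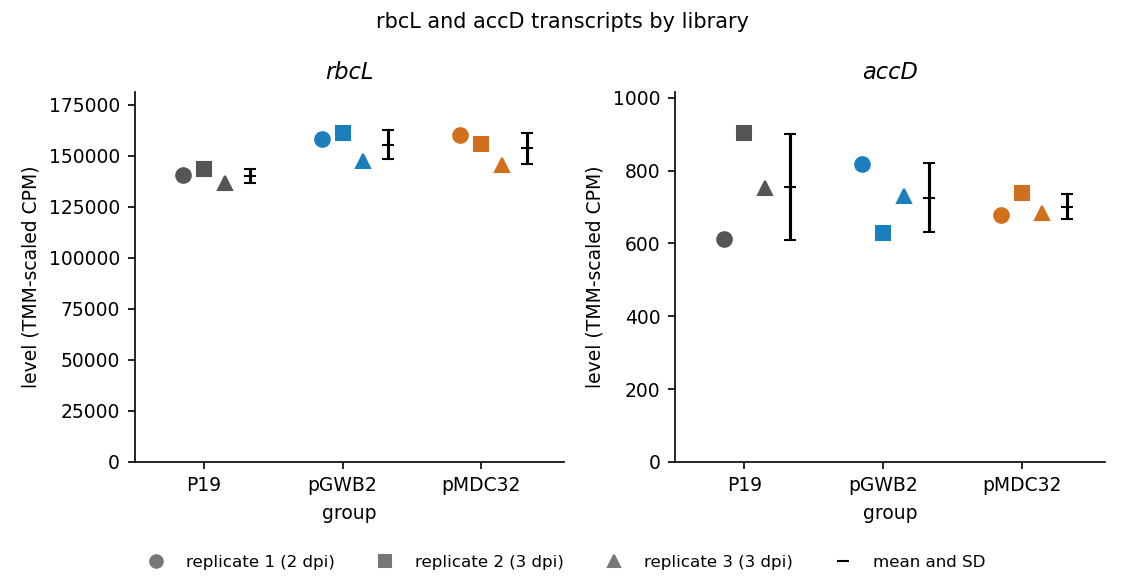
Level in CPM of rbcL (left) and accD (right) after TMM scaling, on linear axes from 0, with 1 point per library and group means with SD beside them (n = 3 per group). The 6 editor libraries lie above the 3 P19 libraries for rbcL, from 145307 upward against 143626 at most, while for accD the P19 libraries span 612.3 to 902.8 and enclose all others.

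The steadiness of these genes was compared with that of other plastid messages by the SD of the log2 level over the 9 libraries. These levels are TMM-scaled. The highest rbcL level was 1.18 times the lowest, while its highest share of counted reads was 1.63 times the lowest. For rbcL the SD was 0.09, at rank 3 from the steadiest of the 80 protein-coding genes, whose median was 0.25. For accD it was 0.18, at rank 23. Without P19 replicate 1 the median was 0.15, rbcL had rank 5 and accD rank 47, so that the rank of accD depends on that library. Counting error was small beside this spread. The 95% exact Poisson half-width of a single accD count was at most 1.56% of the count, and of an rbcL count at most 0.103%, and these limits cover counting error only.

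As a share of all counted reads, rbcL was lower in P19 leaves than in every editor library. It took 10.4%, 15.4% and 13.1% of reads in P19 replicates 1 to 3. With pGWB2 it took 16.3%, 16.1% and 15.9%, and with pMDC32 15.8%, 17.1% and 15.9%. The Wilson 95% interval of each share was within 0.0126 percentage points of it. The mean share was 16.2% ± 0.469 in editor leaves (SD, n = 6) and 13.0% ± 2.49 in P19 (SD, n = 3), a difference of 3.19 percentage points. An exact two-sided permutation test of 6 against 3 libraries gave p = 0.0119, the smallest that it can give, and 0.179 after Benjamini-Hochberg adjustment over 15 tests of shares and ratios, which does not pass. Of the 105 plastid genes 9 (8.57%) had shares that did not overlap in this way, all of them higher with the editor.

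The share difference was smaller without P19 replicate 1. In that library psbA was at 61.1% and rbcL at 10.4%, its lowest share, although its scaled rbcL level of 140696 CPM lay between those of the other P19 libraries. Without it the difference in share was 1.92 percentage points (exact permutation p = 0.0357, adjusted 0.268). Of the reads that were not psbA, rbcL took 27.9% ± 1.22 in P19 (SD, n = 3), 31.3% ± 1.28 (SD, n = 3) with pGWB2, and 30.8% ± 0.685 (SD, n = 3) with pMDC32. Outside psbA, editor leaves exceeded P19 by 3.11 percentage points (exact permutation p = 0.0119, adjusted 0.119 over the 10 tests of this alternative). Editor and P19 libraries again did not overlap, by a small margin, with 29.9% in pGWB2 replicate 3 and 29.2% in P19 replicate 2. How many other plastid genes did not overlap in this measure was not counted. The separation is therefore not read as particular to rbcL. The part of P19 replicate 1 in the share was not tested further.

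**Figure D2:**
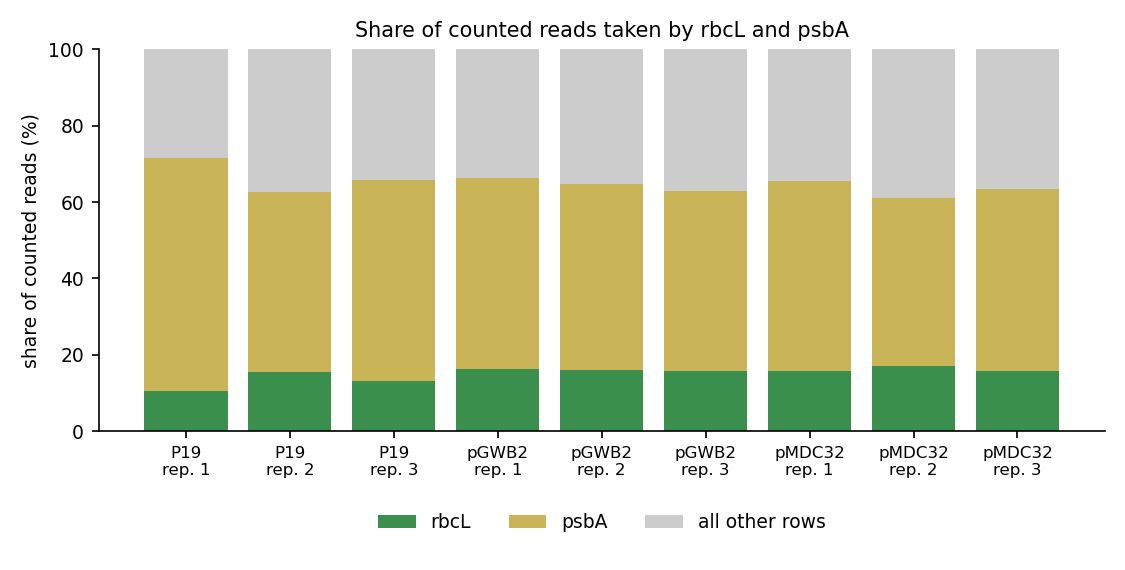
Share of counted reads, in percent, taken by rbcL (green), psbA (yellow) and all other rows (grey) in each of the 9 libraries, 1 bar per library. The rbcL share is 10.4% in P19 replicate 1, where psbA takes 61.1%, and lies between 15.8% and 17.1% in the 6 editor libraries.

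For accD the shares of all reads were 0.0455%, 0.0970% and 0.0718% in P19, 0.0842%, 0.0629% and 0.0784% with pGWB2, and 0.0672%, 0.0809% and 0.0747% with pMDC32. P19 replicate 1 held the lowest and P19 replicate 2 the highest, and the groups overlapped. Editor and P19 means differed by 0.0033 percentage points (exact permutation p = 0.738, adjusted 0.964).

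The first comparison asked whether the editor from pGWB2 altered plastid messages. The log2 difference of rbcL from P19 was 0.15 (SE 0.08, 95% interval -0.03 to 0.32), with an adjusted p = 0.55 (edgeR quasi-likelihood test, Benjamini-Hochberg over all 106 rows). This is a level 1.11 times that of P19, higher in 3 of 3 libraries. For accD it was -0.06 (SE 0.17, 95% interval -0.45 to 0.33, adjusted p = 0.863 by the same test). Neither member passed, and nor did any of the 105 plastid genes (0%). At an unadjusted p under 0.05 there were 6, DESeq2 called rpl33 of the large ribosomal subunit alone (1 gene, 0.952%), and limma-voom called 0. Levels of 14 of the 105 (13.3%) did not overlap between pGWB2 and P19, rbcL among them, and 6 (5.71%) were higher with pGWB2. Within sequencing lane 4, read from the column names, which holds P19 replicates 2 and 3 and all pGWB2 libraries, the differences were 0.15 for rbcL and -0.19 for accD.

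With pMDC32 the log2 difference of rbcL from the same P19 libraries was 0.13 (SE 0.08, 95% interval -0.04 to 0.31, adjusted p = 0.54 in the same edgeR fit), higher in 3 of 3 libraries. For accD it was -0.11 (SE 0.17, 95% interval -0.50 to 0.28, adjusted p = 0.717 by the same test). Neither passed, and 0 of 105 plastid genes did (0%), with 6 at an unadjusted p under 0.05. Again DESeq2 called 1 (rpl33, 0.952%) and limma-voom 0. Levels of 13 (12.4%) did not overlap, rbcL among them, and 3 (2.86%) were higher with pMDC32. Lane 8 holds pMDC32 replicates 1 and 2 and, of P19, only replicate 1, and there the differences were 0.22 for rbcL and 0.26 for accD, with 51 plastid genes called (48.6%) but neither member. With the lane as covariate 49 were called (46.7%), again neither member, and rbcL stood at 0.17 and accD at 0.21. The sign for accD was thus opposite within that lane and with the lane as covariate, where the lone control in lane 8 is the library that stands apart.

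Both vectors together gave the narrowest interval for rbcL. It was 0.14 higher on the log2 scale than in P19 (SE 0.06, 95% interval 0.0048 to 0.28), with an adjusted p = 0.292 (edgeR quasi-likelihood fit of these 2 classes, over all rows). That is 1.102 times the P19 level, with bounds of 1.003 and 1.21. Levels of 7 of the 105 plastid genes (6.67%) did not overlap between the 6 editor and the 3 P19 libraries, and 3 of them (2.86%) were higher with the editor, namely rbcL, rpl33 and rps18. The difference for accD was -0.08 (SE 0.14, 95% interval -0.39 to 0.23, adjusted p = 0.68 by the same test). By edgeR 0 of 105 genes passed (0%), with 16 at an unadjusted p under 0.05. Calls by DESeq2 numbered 3 (2.86%), which were rbcL, trnT and rpl33, with rbcL at a log2 difference of 0.16 (SE 0.05) and an adjusted p = 0.0324, and limma-voom called 0. Over all alternatives the adjusted p of rbcL in this comparison ran from 0.0324 to 0.648, and DESeq2 was the one that called it. With the lane as covariate, a fit in which pMDC32 replicate 3 is alone in lane 5 and does not inform the difference, rbcL stood at 0.16 (SE 0.06) and accD at -0.05 (SE 0.15).

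Scaling set part of the size of these differences. With TMM the median over the 105 plastid genes for both vectors against P19 was -0.08, and rbcL stood at 0.14. With libraries scaled by total count the median was 0.10, rbcL stood at 0.32 (SE 0.11) and accD at 0.06, where TMM gave -0.08 for accD. The difference of rbcL was positive under both, and that of accD took its sign from the scaling. Without P19 replicate 1 rbcL stood at 0.19 (SE 0.07) and accD at -0.17 (SE 0.13). The difference of rbcL was thus not smaller without the library that stands apart.

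**Figure D3:**
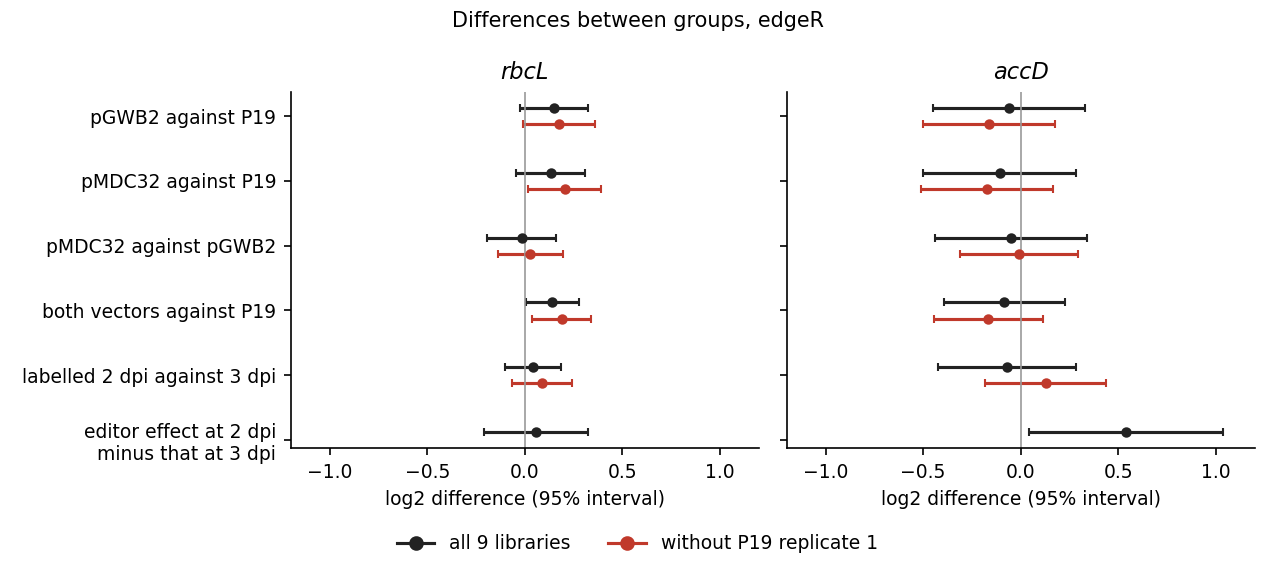
Log2 differences of rbcL (left) and accD (right) with 95% intervals from edgeR's quasi-likelihood fits, for each comparison, with all 9 libraries (black) and without P19 replicate 1 (red), where the interaction could not be fitted. For both vectors against P19 the rbcL estimate is 0.14 with all libraries and 0.19 without that library, while those of accD are -0.08 and -0.17.

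The vectors were not seen to differ in either gene. The pMDC32 minus pGWB2 difference was -0.02 for rbcL (SE 0.08, 95% interval -0.19 to 0.16) and -0.05 for accD (SE 0.17, 95% interval -0.44 to 0.34), both with an adjusted p = 0.998 in the edgeR fit of the 3 groups. These intervals span 0.876 to 1.12 times for rbcL and 0.737 to 1.27 times for accD. Among plastid genes 0 of 105 passed (0%), 1 had an unadjusted p under 0.05, and DESeq2 and limma-voom called 0. With the lane as covariate 40 were called (38.1%), neither member among them, and rbcL stood at 0.02 and accD at 0.40 (SE 0.26), opposite in sign to the fit without it. No lane holds both vectors, so in that fit the vectors are linked through P19, which has only replicate 1 in lane 8.

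A ratio taken within a library does not depend on the scaling. For each accD read there were 229.8, 159.1 and 182.1 rbcL reads in P19 replicates 1 to 3. With pGWB2 there were 193.3, 256.6 and 202.3, and with pMDC32 235.8, 211.0 and 212.5. The 2 lowest ratios were those of P19 replicates 2 and 3, and the ratio of P19 replicate 1 lay within the range of the editor libraries. Means were 190.3 ± 36.1 in P19, 217.4 ± 34.2 with pGWB2 (SD, n = 3 each) and 219.8 ± 13.9 with pMDC32 (SD, n = 3). Per length the rbcL level was 170.7 to 275.3 times that of accD in single libraries.

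The log2 ratio with the editor exceeded that in P19 by 0.21 (exact two-sided permutation test of 6 against 3 libraries, p = 0.179, adjusted 0.67 over the 15 tests). For pGWB2 and pMDC32 against P19 it was 0.20 and 0.22 higher (exact permutation p = 0.4 and 0.3), where 3 against 3 libraries cannot give a p below 0.1. Without P19 replicate 1 the excess was 0.35 and every editor library had a higher ratio than the 2 P19 libraries left (exact permutation p = 0.0357, the smallest possible, adjusted 0.268). Within lane 4 it was 0.34 for pGWB2. Within lane 8 it was -0.04 for pMDC32, a value with P19 replicate 1 as the lone control, and vector and lane cannot be told apart between these values. The ratio passed in none of these comparisons after adjustment, nor in those of pMDC32 with pGWB2 and of the labelled days.

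**Figure D4:**
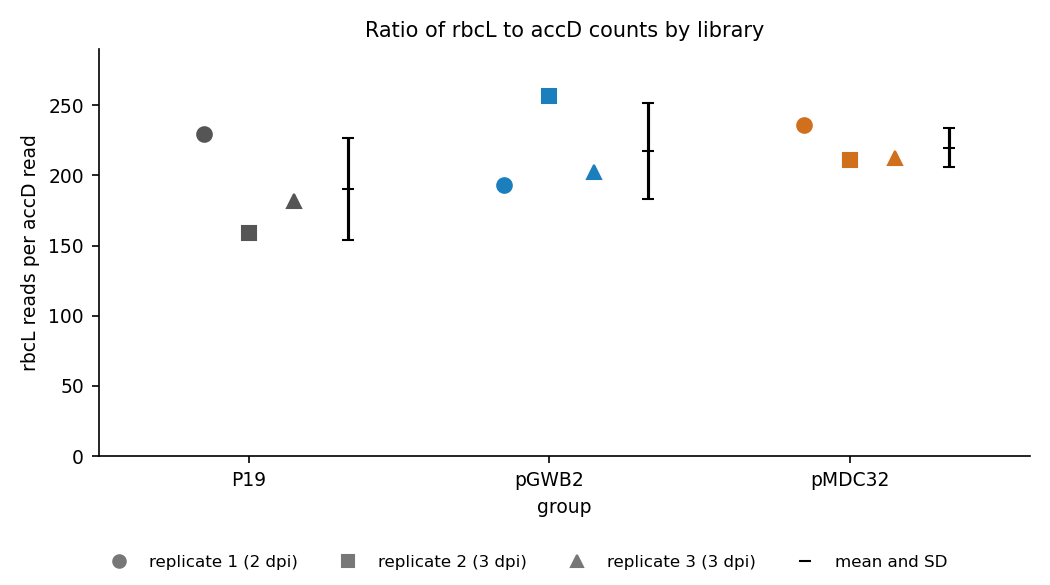
Reads of rbcL per read of accD in each library, on a linear axis from 0, with 1 point per library and group means with SD beside them (n = 3 per group). P19 replicates 2 and 3 have the lowest ratios, 159.1 and 182.1, and pGWB2 replicate 2 the highest, 256.6.

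Along the region the level per length was highest at rbcL and lowest at accD in each of the 9 libraries. Per kilobase, rbcL stood at 97870 ± 2419 CPM in P19, 108479 ± 5023 with pGWB2 and 107260 ± 5334 with pMDC32, against 490.8 ± 94.4, 471.0 ± 61.6 and 455.3 ± 21.8 for accD (SD, n = 3 each). The ratio of these group means was 199.4 in P19, 230.3 with pGWB2 and 235.6 with pMDC32. The next gene downstream, psaI, stood at 19857 ± 7335 CPM per kilobase in P19, 15976 ± 1099 with pGWB2 (SD, n = 3 each) and 15870 ± 1252 with pMDC32 (SD, n = 3). Its P19 spread came from replicate 1, at 28166, against 14279 and 17126 in the others. Beyond psaI, ycf4, cemA and petA had group means of 1495 to 2281 CPM per kilobase. On the other side of rbcL, atpB stood at 2155 ± 225 in P19, 2871 ± 278 with pGWB2 (SD, n = 3 each) and 2680 ± 493 with pMDC32 (SD, n = 3), so that rbcL exceeded its divergent neighbour 45.4, 37.8 and 40.0 times per length.

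**Figure D5:**
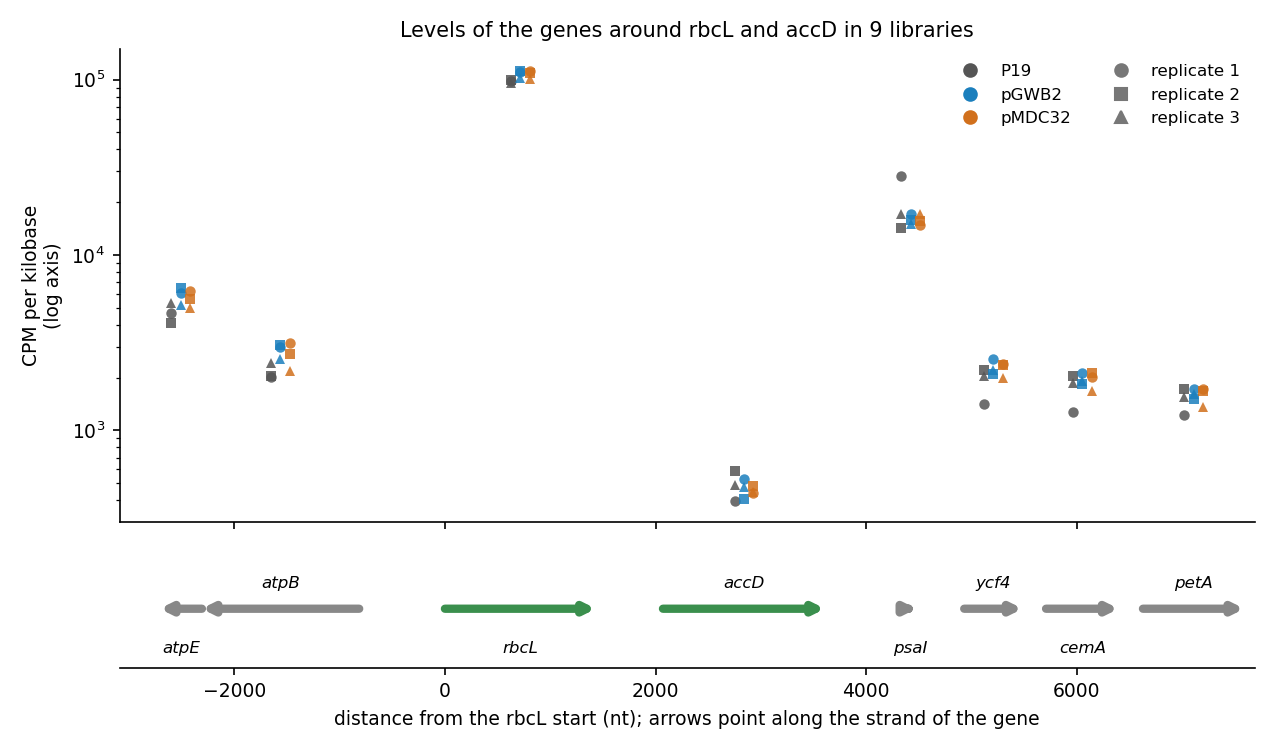
Level in CPM per kilobase, on a log axis, of 8 genes around rbcL and accD in the 9 libraries (colour, group; shape, replicate), placed by distance in nucleotides from the rbcL start, with arrows for the genes and their strands. The rbcL points lie between 95339 and 112392 and those of accD between 397.9 and 586.6, below all their neighbours, and the psaI point of P19 replicate 1, at 28166, stands above the other 8.

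Of the 6 neighbours, 0 passed the test in any comparison of groups. For both vectors against P19 the log2 differences were 0.37 for atpB (SE 0.14), 0.30 for atpE (SE 0.13), -0.32 for psaI (SE 0.19), 0.26 for ycf4 (SE 0.15), 0.18 for cemA (SE 0.16) and 0.09 for petA (SE 0.13). Their median was 0.22, against -0.08 over all plastid genes. The value of accD, -0.08, therefore lay beside that of all genes, and that of rbcL, 0.14, between it and the neighbours' median.

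Genes whose profile over the 9 libraries was most like that of each member were found by the SD of the log2 ratio to it. For rbcL these were atpF of the ATP synthase (SD 0.08), ycf1, for a component of the plastid protein import machinery (0.09), and atpH of the ATP synthase (0.11), against a median SD of 0.25 over 79 genes. For accD they were ycf15, an open reading frame of unknown function (0.12), rps4 of the small ribosomal subunit (0.13) and rpoA of the plastid-encoded polymerase (0.13), against a median of 0.31. The SD of the rbcL to accD log2 ratio was 0.21, which placed accD at rank 31 of 79 for rbcL, and rbcL at rank 17 of 79 for accD. Without P19 replicate 1 these ranks were 63 and 38, and atpF kept rank 1 for rbcL. For accD the order changed without that library, with psbM of photosystem II moving from rank 63 to rank 1, ycf15 to rank 5 and rpoA to rank 9, while rps4 kept rank 2. The nearest neighbour upstream, atpB, ranked 24 for rbcL, or 45 without P19 replicate 1, and psaI, just downstream of accD, ranked 68 for accD, or 37 without P19 replicate 1. The ranks describe these libraries, which share normalization factors.

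The pair belongs to different polymerase classes, and lists of both classes were read beside it. Among 27 photosynthesis genes of photosystems I and II, the cytochrome b6f complex and rbcL, which are known as genes of the plastid-encoded polymerase, 0 passed for both vectors against P19. Their median was -0.24, with rbcL at 0.14 among the 6 of 27 above 0. P19 replicate 1 enters these values. There psbK stood at 9371 CPM, against 3918 and 4900 in the other P19 libraries and 4312 to 5583 with the editor. In the other direction psaA stood at 6131 there, against 7724 and 10696 in P19 and 8335 to 12411 with the editor. List medians without that library were not computed. Among 6 genes with promoters of the nuclear-encoded polymerase (accD, rpoB, rpoC1 and rpoC2 of the plastid polymerase itself, ycf2 for an essential plastid protein and clpP1 for a protease subunit), 0 passed and the median was -0.05, with values from -0.14 for rpoC1 to 0.11 for rpoB and accD at -0.08. Over all plastid genes the median was -0.08.

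Labelled days were set against each other in a fit that held the group. The log2 difference of 2 dpi from 3 dpi was 0.04 for rbcL (SE 0.06, 95% interval -0.10 to 0.19, adjusted p = 0.669) and -0.07 for accD (SE 0.15, 95% interval -0.42 to 0.29, adjusted p = 0.792), edgeR being used as before. Among plastid genes 0 of 105 passed (0%), with 12 at an unadjusted p under 0.05, 2 called by DESeq2 (1.9%, trnR and trnA) and 0 by limma-voom. Without P19 replicate 1 the value for accD was 0.13 (SE 0.14), opposite in sign, and that for rbcL 0.09 (SE 0.07). The rbcL share was 14.2% on average in libraries labelled 2 dpi and 15.6% in those labelled 3 dpi (exact permutation within groups, p = 0.296, adjusted 0.75), and the difference was -0.17 percentage points without P19 replicate 1. The replicate number and the labelled day cannot be told apart.

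An interaction of editor and labelled day was computed next. Its P19 arm at 2 dpi is 1 library, P19 replicate 1, so the spread in the fit comes from the other arms and that library is assumed to vary as they do. The calls thus have no replicate check in that arm, and the interaction could not be fitted without that library. At 2 dpi accD stood at 612.3 CPM in P19, and at 817.6 with pGWB2 and 679.1 with pMDC32. At 3 dpi it stood at 902.8 and 750.8 in P19 and between 628.2 and 739.4 in the editor libraries. The P19 library was thus the lowest at 2 dpi, and both P19 libraries were the highest at 3 dpi, where 750.8 lay close to 739.4. How many other plastid genes had this order was not counted. On the log2 scale, the editor's effect at 2 dpi exceeded that at 3 dpi by 0.54 for accD (SE 0.23, 95% interval 0.04 to 1.04, adjusted p = 0.0744) and by 0.06 for rbcL (SE 0.12, 95% interval -0.21 to 0.32, adjusted p = 0.715), again with edgeR. Neither member was called in this fit. Of the 105 plastid genes it called 43 (41%), 25 (23.8%) positive and 18 (17.1%) negative, and DESeq2, which called neither member, called 50 (47.6%). The value for accD depended on the setting. It was 0.27 without rRNA and tRNA rows (adjusted p = 0.302 by edgeR) and 0.33 without P19 replicate 2 (adjusted p = 0.252 by edgeR), and 0.67 without P19 replicate 3, where it was called (adjusted p = 0.0232 by edgeR, the range over alternatives being 0.0179 to 0.302). With total-count scaling, which moved the median over all plastid genes from 0.06 to 0.43, both members were called, at 0.92 for accD and 0.43 for rbcL, the latter at that median.

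For the lists read beside the pair, this interaction is given as a description, since its P19 arm at 2 dpi has 1 library. Of the 6 genes of the nuclear-encoded polymerase 4 were called, all positive: rpoC1 (1.59, SE 0.36), ycf2 (1.35, SE 0.35), rpoC2 (1.10, SE 0.27) and rpoB (1.09, SE 0.24), while clpP1 stood at -0.08 (SE 0.21). Of the 27 photosynthesis genes 1 was called positive (petA, 0.57, SE 0.21) and 12 negative, against 25 positive and 18 negative among all 105 plastid genes. Of the 6 neighbours, ycf4 (0.77, SE 0.20), cemA (0.76, SE 0.21) and petA were called positive and psaI (-0.84, SE 0.21) negative. In P19 replicate 1 rpoC1 stood at 218.0 CPM against 436.7 to 966.1 in the other 8 libraries, and rpoB at 212.4 against 380.2 to 545.7. In that library accD, at 612.3 against 628.2 to 902.8, was also below all others, and rbcL, at 140696 against 136716 to 161170, was not. Below all others there too were rpoC2 and ycf2. The same held for the neighbours ycf4 (788.9 against 1100.2 to 1412.6), cemA, petA and, narrowly, atpB (3009 against 3055 to 4727). The neighbours atpE (1880 against 1644 to 2591) and psaI (3126 against 1585 to 1912) were not below all others. All these neighbours are outside the list with nuclear-encoded polymerase promoters. Within that list clpP1, at 1174 against 1054 to 1310, was not below all others. Genes outside the lists were also lowest in P19 replicate 1, such as matK (5134 against 7400 to 10686) and rps19 (59.2 against 132.3 to 190.8). Other plastid genes were highest there, such as psbA (823134 against 402280 to 550365). How many of all plastid genes were lowest in that library was not counted. A difference by day in P19 leaves and the state of that library cannot be told apart.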

How the data were processed

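The authors deposited raw read counts per gene, which are not normalized. Per the submitters' processing notes, the tools were DESeq2 1.42.0, featureCounts 2.0.1, FastQC 0.12.1, HISAT2 2.2.1 and Trim Galore 0.6.10. Per the labels' protocols, ribosomal RNA was removed and strand-specific dUTP libraries were built. No source used here names the genome build, the strand setting or the treatment of multiply mapped reads.

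Groups came from sample titles and lanes from column names. All 106 rows were fitted with edgeR 4.0.16 (R 4.3.3): TMM, filterByExpr (all rows passed), two-sided quasi-likelihood tests, Benjamini-Hochberg adjustment, threshold 0.05. All 9 libraries entered each fit. Shares and log2 ratios were compared by exact permutation tests (numpy 2.4.6), adjusted over 15 tests. In some alternatives the adjustment covered fewer tests, such as 10 for shares without psbA and 6 within a lane. Scripts were tested on simulated data. Alternatives were RLE and total-count scaling, no filter, DESeq2 1.42.0, limma-voom (limma 3.58.1), omission of rRNA and tRNA rows, of psbA or of single libraries, a replicate block, labelled day, lane, and fits of the compared groups.

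Named were rbcL, accD, the 2 nearest rows on each side, the 3 most similar genes for each member, and members of 3 lists. Members, lists and tests were chosen with earlier results of these data known. Replicate pairs differed beyond sampling noise (chi-square over degrees of freedom at least 1359), which does not show separate plants. The p-values therefore measure the spread between these libraries. No sequences are printed, as no reference was used here.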

Additional observations from a re-analysis of the deposited data

Results flagged for a closer look

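Among the 6 editor libraries, the rbcL share of counted reads in pMDC32 replicate 2, 17.1%, stood apart from the others, which ran from 15.8% to 16.3%. Its gap to the next library was 0.644 of the whole range, where 0.625 is the limit for 6 values, and chance alone passes that limit in about 5% of groups. That 5% holds for a single check. The same check of the CPM of both genes, the accD share and the ratio flagged nothing. The library pMDC32 replicate 2 also had the lowest psbA share of the 9, 44.0%. After TMM scaling its rbcL level, 156000 CPM, lay within the range of the other editor libraries, and of the reads that were not psbA rbcL took 30.5% there, against 29.9% to 32.5% in the others.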

How the results depend on the processing

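Of the alternatives other than leaving out a library, 213 kept direction and side of the threshold (or a count within 1.5 times), 30 turned a sign, 3 made a call and 10 moved a count. The causes were not tested. No sign turn was of a called value. The difference of rbcL for either vector or both against P19 stayed positive under all alternatives, from 0.10 to 0.32. DESeq2 called it for both vectors (0.16). Turns of accD against P19 were 0.074 (pGWB2), 0.056 (pMDC32) and 0.065 (both) with total-count scaling, 0.013 (pGWB2) without psbA, 0.26 (pMDC32, both) within lane 8 and 0.21 (pMDC32) with lane as covariate. For pMDC32 against pGWB2, rbcL turned to 0.015 with total-count scaling, 0.011 at 3 dpi and 0.018 with lane, and accD to 0.11 at 3 dpi and 0.40 with lane. For labelled days rbcL turned to -0.15 with total-count scaling and -0.044 without rRNA and tRNA rows. The day-by-editor interaction of rbcL was -0.21 without rRNA and tRNA rows, -0.044 without psbA and 0.43 with total-count scaling, which called both rbcL and accD (0.92).

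In percentage points, the rbcL share turned to -0.49 (vectors) and 0.50 (days) without psbA. The accD share against P19 turned to -0.0046 (pGWB2), -0.011 (pMDC32) and -0.0076 (both) without psbA, to -0.014, -0.0066 and -0.010 at 3 dpi, and to -0.0092 (pGWB2, both) within lane 4, and that between vectors to 0.0071 at 3 dpi. The log2 ratio turned to -0.043 (pMDC32, both) within lane 8, an alternative added after seeing the data, and to -0.11 (vectors) at 3 dpi.

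Called plastid genes, 0 in each comparison of groups or days, numbered 1 (pGWB2), 1 (pMDC32), 3 (both) and 2 (days) by DESeq2, 2 (days) with total-count scaling, 51 (pMDC32, both) within lane 8, 49 (pMDC32) and 40 (vectors) with lane as covariate, and 1 (vectors) in the fit of those groups.

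Leaving out single libraries, accD ranged from -0.16 to 0.093 for pGWB2, -0.17 to 0.085 for pMDC32, -0.17 to 0.089 for both, -0.14 to 0.096 between vectors, -0.20 to 0.13 between days and 0.33 to 0.67 in the interaction, where it was called without P19 replicate 3. The rbcL ranges were -0.053 to 0.049 between vectors and -0.047 to 0.11 in the interaction. Its share ranged from -0.23 to 0.38 points between vectors. Ranges of the accD share were -0.0092 to 0.017 (pGWB2), -0.010 to 0.016 (pMDC32), -0.0070 to 0.0036 (vectors), -0.0097 to 0.016 (both) and -0.025 to 0.0015 (days). The log2 ratio ranged from -0.054 to 0.15 between vectors and -0.041 to 0.29 between days. Called genes ranged from 0 to 2 between days.

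The replicate numbers were not taken as pairs. Correlations of the deviations of same-numbered libraries ran from -0.53 to 0.71, and the best match in another group had the same number in 5 of 18 cases. With the number as a block rbcL stood at 0.15 for pGWB2, 0.13 for pMDC32 and 0.14 for both, no call changed, and 0 genes were called. Lane 8 with pGWB2, lane 4 with pMDC32, either lane between vectors, and the interaction without P19 replicate 1 could not be fitted. Counting depth limits no value of rbcL or accD; 3 libraries per group do.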
